A study of Rattus norvegicus with 8 samples.

Results

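The nuclei described here were chosen by their transcripts from rat nodose ganglia, which hold cell bodies of vagal sensory neurons. A nucleus was taken when at least 2 of the 5 genes Edn3, Chrdl1, Kcng1, Otof and Vwf each had at least 1 UMI (unique molecular identifier, a counted transcript), when Edn3 or Chrdl1 was among them, and when the endothelial genes Pecam1 and Cdh5 had none. The rule found 1022 of 36741 nuclei (2.78%), called rule nuclei below. The rats were untreated Long Evans animals of 8 weeks, 18 per sex, and each of 12 pools held the ganglia that 6 rats gave from 1 side. There were 3 pools for each combination of labelled sex and side, named ML1 to ML3 (male-labelled, left), MR1 to MR3 (male-labelled, right), FL1 to FL3 (female-labelled, left) and FR1 to FR3 (female-labelled, right). With these numbers the left and right pools of a sex would draw on the same rats, so the pools are not all independent animals, and p-values measure the spread between pools.

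Vagal sensory neurons carry signals from the heart, lungs and gut to the brainstem, and their cell bodies lie in the nodose and jugular parts of 1 ganglion. They are surrounded by satellite glia, and their axons are wrapped by Schwann cells. The 5 rule genes have unlike roles. Edn3 encodes endothelin 3, a secreted peptide that acts on endothelin receptors. Chrdl1 encodes a secreted antagonist of bone morphogenetic proteins (BMPs). Kcng1 encodes a potassium channel subunit that forms no channel alone and modifies Kv2 channels. Otof encodes otoferlin, a calcium-binding protein needed for vesicle release in auditory hair cells. Vwf encodes von Willebrand factor, a clotting protein made mainly by endothelial cells.

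The sex labels of 2 pools went against their Y-linked transcripts. The summed level of Ddx3y, Kdm5d, Eif2s3y and Usp9y over all nuclei was 2.88 CPM (UMIs of a gene per 1e+06 UMIs) in ML1 and 88.6 CPM in FL1, while the other male-labelled pools lay between 84.4 and 91.3 CPM and the other female-labelled pools between 2.73 and 3.95 CPM. The shares of rule nuclei and of the led clusters (defined below) and the gene calls by labelled sex are therefore given with and without ML1 and FL1, while the shares of thinned nuclei are given with all pools only. The rule nuclei made up between 2.43% and 3.23% of each of the 8 sublibraries. The well combination of 107 rule nuclei recurred in another sublibrary, and none was shared with another rule nucleus.

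Most rule nuclei met the rule narrowly. Of the 1022, 580 had 2 of the 5 genes, 280 had 3, 132 had 4 and 30 had all 5. Otof was detected in 732 of them and Chrdl1 in 736, against 423 with Kcng1, 416 with Edn3 and 371 with Vwf. Edn3 and Chrdl1 occurred together in 130 nuclei, 286 had Edn3 without Chrdl1, and 606 had Chrdl1 without Edn3. Among the nuclei with 2 genes the commonest pair was Chrdl1 with Otof, in 218 nuclei, followed by Edn3 with Otof in 115 and Chrdl1 with Vwf in 110. Just outside the rule lay 1171 nuclei with Edn3 or Chrdl1 alone, 610 with 2 or more of the other genes but neither Edn3 nor Chrdl1, and 152 removed for a UMI of Pecam1 or Cdh5.

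Depth moved with membership. Rule nuclei had a median of 4624 UMIs, against 2638 in all other nuclei. Nuclei with 2 rule genes had a median of 3864 UMIs, and nuclei with Edn3 or Chrdl1 alone had 2660. A nucleus with more UMIs has more chances to show a gene, and the part of depth in each result below was tested only where thinning or depth matching is named.

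Rule nuclei were spread over neuronal and non-neuronal clusters. Clustering of all nuclei gave 2 clusters with at least 3 rule genes among their 10 leading genes, called led clusters below, and these held 526 rule nuclei (51.5%). Nuclei and led clusters were both picked by the rule genes, so that overlap is a description and does not bear on the label of an Edn3, Kcng1 and Otof neuron type. Cluster 11, with 1242 nuclei, was led by Edn3, AABR07026805.1, Kcng1, Chrdl1 and Otof, and 384 of its nuclei met the rule. Cluster 24, with 322 nuclei and a median of 6695 UMIs, was led by Chodl, Kcng1, AABR07026805.1, Otof and Chrdl1, and 142 of its nuclei met the rule. A further 275 rule nuclei fell in other neuron-like clusters, 44 in unnamed clusters and 177 (17.3%) in non-neuronal classes. The led clusters also held 1038 nuclei that did not meet the rule, of which 331 showed no rule gene and 437 showed 1. The median depth there was 2529 UMIs in nuclei outside the rule and 4361 UMIs in rule nuclei.

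**Figure D1:**
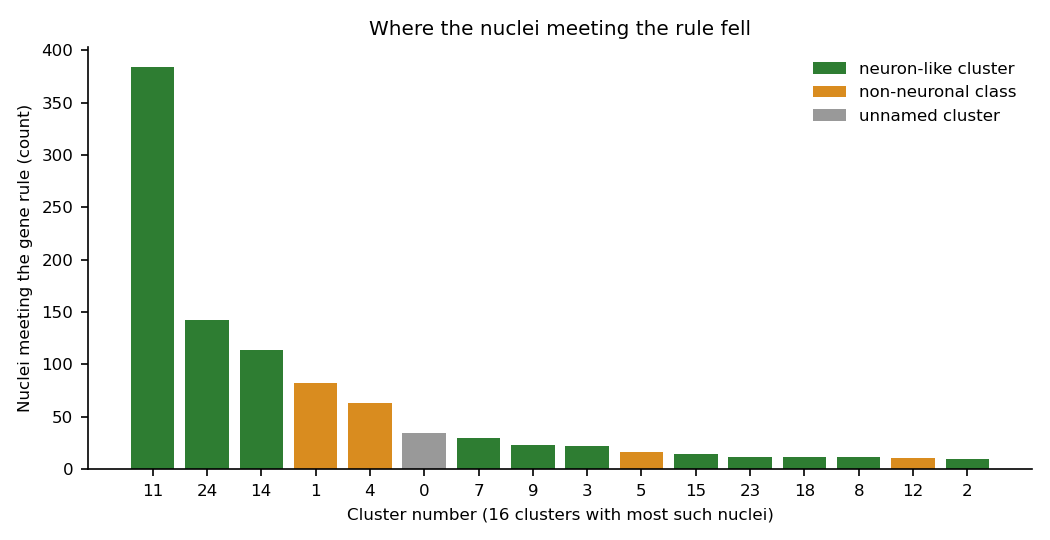
Rule nuclei (vertical axis, count) in the 16 clusters that held most of them (horizontal axis, cluster number), coloured by the kind of cluster. Clusters 11 and 24 held 384 and 142, cluster 14 held 114, and the satellite glia and myelinating Schwann cell clusters 1 and 4 held 82 and 63.

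The rule genes that brought a nucleus in differed from cluster to cluster. In cluster 11, Edn3 was detected in 53.1% of the rule nuclei, Chrdl1 in 65.4%, Kcng1 in 56.5% and Otof in 76.0%. In cluster 14, led by Tmem233, Spon1, Marchf1 and Tacr1, Chrdl1 was detected in 88.6% of the 114 rule nuclei and Edn3 in 18.4%. In the myelinating Schwann cell cluster, Chrdl1 was detected in 96.8% and Vwf in 85.7% of the 63 rule nuclei, against 4.76% for Edn3 and 3.17% for Kcng1. Over all nuclei of that cluster Chrdl1 stood at 91.7 CPM, compared with 14.1 CPM in satellite glia and 141 CPM in cluster 11. In satellite glia the 82 rule nuclei had a median of 8147 UMIs, against 2819 for the whole cluster. Edn3 was detected in 20.6% of all nuclei in cluster 11 and 21.7% in cluster 24, which were picked by rule genes. In satellite glia and Schwann cells, with median depths of 2819 and 1576 UMIs, it was detected in 0.915% and 0.596%. Among neuron-like clusters outside the led ones, the highest shares were 3.50% in cluster 17 and 3.04% in cluster 14.

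Levels of the rule genes are given as a description, because they chose the nuclei. Other neurons here are the 20092 nuclei of neuron-like clusters that did not meet the rule. Edn3 ranged over the 12 pools from 62.6 to 113 CPM (median 81.3) in rule nuclei and from 1.43 to 4.12 CPM (median 2.19) in other neurons. Otof ranged from 189 to 314 CPM (median 269) in rule nuclei and from 37.1 to 55.8 CPM (median 50.5) in other neurons. The rule nuclei of every pool lay above every pool of other neurons for both genes, and Otof was the rule gene with the highest background. Chrdl1 ranged from 149 to 231 CPM (median 198) against 4.80 to 9.05 CPM, Kcng1 from 89.3 to 156 CPM (median 115) against 10.6 to 25.1 CPM, and Vwf from 72.3 to 134 CPM (median 89.4) against 7.41 to 17.8 CPM. Within the led clusters, nuclei outside the rule still held Otof at 263 CPM, Kcng1 at 114 CPM and Edn3 at 19.2 CPM.

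Markers fixed for neurons, nodose and jugular neurons were then read in the rule nuclei. The summed level of the 5 nodose markers ranged from 325 to 551 CPM (median 452) over pools of rule nuclei and from 403 to 612 CPM (median 496) in other neurons, and 0 of the 5 had a higher mean in rule nuclei. It was 577 CPM in rule nuclei of the led clusters, 434 CPM in those of other neuron-like clusters and 280 CPM in those of non-neuronal classes, next to 250 CPM in all other nuclei of non-neuronal classes. Htr3a and Htr3b, which encode serotonin-gated channel subunits, stood at 190 and 320 CPM in rule nuclei of the led clusters. The 5 jugular markers summed to 33.7 CPM in rule nuclei of the led clusters and to 158 CPM in those of other neuron-like clusters.

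Glial markers were higher in the rule nuclei than in other neurons. The 7 satellite glia markers ranged from 336 to 918 CPM (median 657) over pools of rule nuclei and from 187 to 324 CPM (median 229) in other neurons, and 7 of 7 had a higher mean. The 7 markers of myelinating Schwann cells ranged from 492 to 2021 CPM (median 1052) against 370 to 530 CPM (median 425), again with 7 of 7 higher. None of these markers was at 0. Fibroblast markers, with a median of 294 against 115 CPM, and macrophage markers, with 21.9 against 9.06 CPM, were higher too (5 of 6 and 7 of 7 by mean). The part of RNA from these cells in the gene levels below was not tested. In rule nuclei of the led clusters the satellite glia and myelinating Schwann cell sums were 429 and 504 CPM. In rule nuclei of non-neuronal classes they were 1843 and 3578 CPM. The remaining endothelial markers were Kdr, Tek, Egfl7 and Emcn. Their sum had a median of 19.5 CPM over pools of rule nuclei and 15.9 CPM in other neurons. The highest pool stood at 39.7 CPM against 22.0 CPM, and 4 of 4 markers had a higher mean in rule nuclei. In rule nuclei of non-neuronal classes the sum was 66.2 CPM, compared with 161 CPM in other nuclei of those classes. The rule took out nuclei with Pecam1 or Cdh5, so that last comparison carries no test.

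Across 7193 genes at 20 CPM or more, 22 (0.306%) were at least 2-fold higher in rule nuclei than in other neurons in each of the 12 pools, and 8 (0.111%) were at least 2-fold lower. Without ML2, which had 45 rule nuclei, 52 genes were counted as higher. The clusters were built on these same genes and the nuclei were chosen by their transcripts, so these values carry no test. Of the 22 higher genes, 8 had their highest level in rule nuclei of the led clusters, 2 in those of other neuron-like clusters and 12 in those of non-neuronal classes. When rule nuclei outside neuron-like clusters were left out, 10 of the 22 were also counted, and so were 10 when other neurons were drawn to the same depth.

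The genes highest in the led clusters began with Chodl, which encodes chondrolectin, a membrane protein with a lectin domain. Chodl ranged from 15.9 to 68.5 CPM (median 33.6) in rule nuclei and from 1.29 to 4.40 CPM (median 2.97) in other neurons, a mean ratio of 10.6-fold (log2 3.41 ± 0.61, SD, n = 12 pools). It stood at 77.9 CPM in rule nuclei of the led clusters and at 12.4 CPM in those of non-neuronal classes. The unnamed transcript AABR07026805.1 ranged from 310 to 462 CPM in rule nuclei and from 51.1 to 92.1 CPM in other neurons, and was detected in 64.5% and 15.3% of them. Pcp4, a calmodulin-binding protein, ranged from 106 to 214 CPM against 34.9 to 59.0 CPM. Sp100, a nuclear body protein, had a mean ratio of 3.63-fold and Tacr1, the receptor of substance P, of 3.62-fold. Chdh, choline dehydrogenase, and ENSRNOG00000030622 were also among the 8, at 3.30-fold and 2.67-fold. Chdh stood at 42.0 CPM in rule nuclei of the led clusters and at 40.6 CPM in those of non-neuronal classes. Against depth-matched neurons, Tacr1 and Chdh were not counted. With at least 3 rule genes, Tacr1, Chdh and ENSRNOG00000030622 were not counted. With only rule nuclei of neuron-like clusters, Chdh was not counted. Tacr1 was not counted for led clusters against neurons outside them. For each gene named in this paragraph the pools of rule nuclei lay above the pools of other neurons without overlap. A choice on 2-fold in every pool favours this, and the share of all genes without overlap is not given here.

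Spon1 and Marchf1 were highest in rule nuclei of other neuron-like clusters. Spon1 encodes F-spondin, a secreted matrix protein, and stood at 342 CPM there, at 239 CPM in rule nuclei of the led clusters and at 78.6 CPM in those of non-neuronal classes. Marchf1 encodes a ubiquitin ligase of membrane proteins, and its values in the same order were 588, 493 and 132 CPM. Both genes were among the leading genes of cluster 14.

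The 12 genes highest in rule nuclei of non-neuronal classes included Sparc, Gpm6b, Matn2, Prkcq, Lamb1, Art3, Col28a1, Timp3 and Vim. Sparc, a matrix glycoprotein, stood at 1065 CPM in rule nuclei of non-neuronal classes, at 200 CPM in those of the led clusters and at 102 ± 25.4 CPM (SD, n = 12 pools) in other neurons. Prkcq, a protein kinase C that was also among the leading genes of the Schwann cell cluster, stood at 160, 19.2 and 12.3 CPM in the same order. Of these 12, Mdfic alone was also counted with only the rule nuclei of neuron-like clusters.

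The 8 lower genes were Tafa4, Esr1, Hs6st3, Grk3, Itga2, Alk, Rasgef1b and Hs3st4. Tafa4, a secreted chemokine-like peptide, ranged from 7.72 to 64.0 CPM (median 24.6) in rule nuclei and from 160 to 286 CPM (median 211) in other neurons. Esr1, the oestrogen receptor alpha, ranged from 2.57 to 26.7 CPM against 43.2 to 63.3 CPM. Hs6st3 and Hs3st4 encode enzymes that add sulfate to heparan sulfate chains, and their mean log2 ratios were -1.78 ± 0.35 and -1.36 ± 0.16 (SD, n = 12 pools). Alk, a receptor tyrosine kinase, ranged from 220 to 425 CPM against 788 to 1051 CPM. All 8 were lowest in rule nuclei of the led clusters. Their pools did not overlap with those of other neurons, which a choice on 2-fold in every pool favours. The share of all genes without overlap is not given here.

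**Figure D2:**
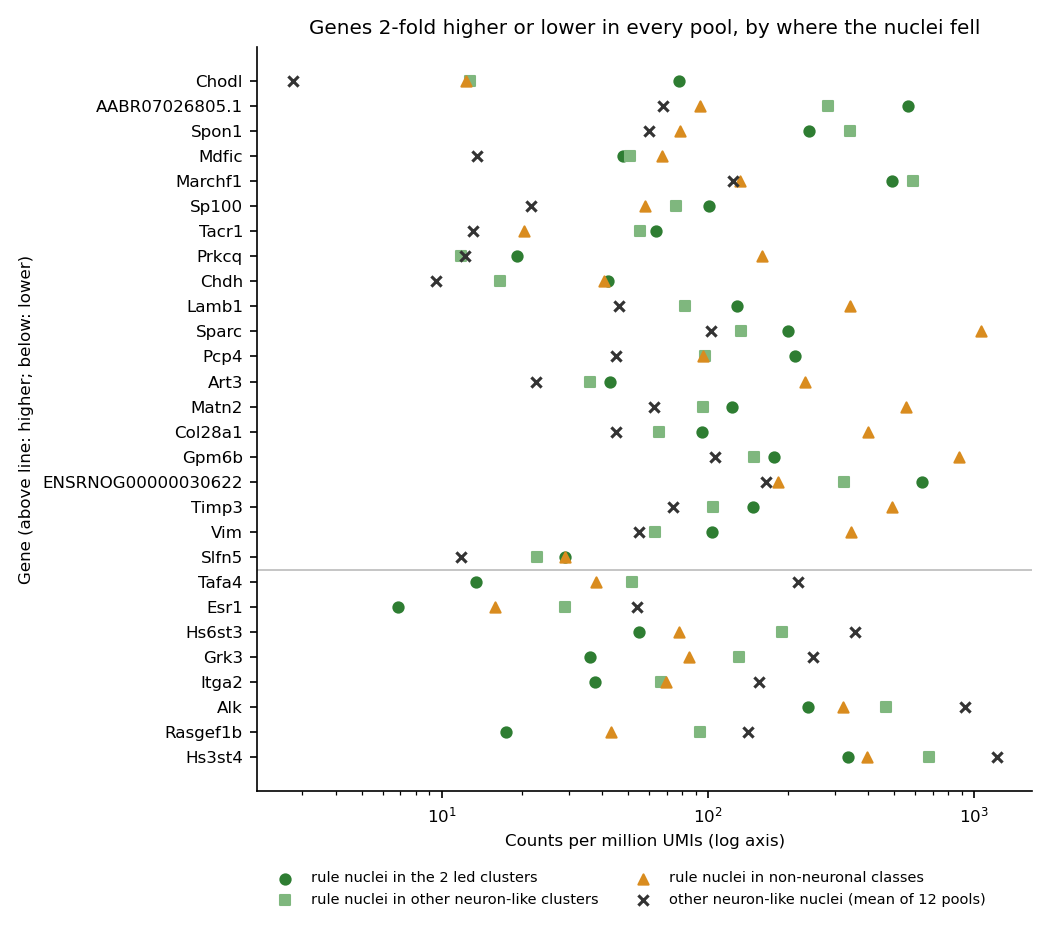
Level of the higher and lower genes reported here (horizontal axis, CPM, log scale; vertical axis, gene) in rule nuclei by the kind of cluster and in other neurons. Chodl and Pcp4 were highest in the led clusters, while Sparc and Prkcq were highest in rule nuclei of non-neuronal classes.

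Restricting the comparison moved it further from the glial genes. Rule nuclei of the led clusters were then set against neurons outside those clusters, a comparison added after seeing the data. Here 18 genes were at least 2-fold higher in every pool and 82 lower. The share of all genes that these counts make is not given here. Of the 22 genes above, 8 were among the 18, with Chodl at a mean log2 ratio of 4.95 and AABR07026805.1 at 3.54. Among the others were Adcyap1, which encodes the peptide PACAP, at 2.19, and the G protein regulators Rgs20 at 2.17 and Rgs6 at 2.02. The tetraspanin Cd9, at 1.99, was another. Cd9 stood at 163 CPM in rule nuclei of non-neuronal classes and at 132 CPM in those of the led clusters. The lowest ratios were those of the contactin Cntn3 at -4.92, Tafa4 at -4.53 and Gpr65, a proton-sensing receptor, at -4.20. Requiring at least 3 rule genes gave 9 higher and 21 lower genes, and Chodl, Spon1, Sp100, Pcp4, Adcyap1, Marchf1 and Rgs6 were among the higher ones.

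Genes whose detection was most like that of the rule were ranked by the mean over pools of the log2 ratio of shares of nuclei with a UMI, among genes found in at least 20% of rule nuclei. The 10 were Mdfic, AABR07026805.1, Sp100, Cd9, Pcp4, Spon1, Rgs20, Notch1, Adcyap1 and Erbb3. Adcyap1 was detected in 35.4% of rule nuclei and 10.3% of other neurons. Erbb3, a neuregulin receptor of glia, was detected in 23.6% and 7.14%, and its level was 223 CPM in rule nuclei of non-neuronal classes against 39.8 CPM in those of the led clusters. These shares were not matched for depth.

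Between all rule nuclei and other neurons, no other gene of the rule genes' pathways was counted in every pool. Of 8 endothelin genes outside the rule, 4 reached 20 CPM and 0 passed 2-fold in every pool. The receptor gene Ednra stood at 22.3 ± 7.85 CPM in rule nuclei and 61.2 ± 5.51 CPM in other neurons (SD, n = 12 pools). Its pools did not overlap, and the share of all genes without overlap is not given here. Ednra was counted as lower with at least 3 rule genes (mean log2 ratio -2.06). It was also counted as lower for rule nuclei of the led clusters against neurons outside them (-3.86). Ednrb, the receptor that binds endothelin 3 strongly, stood at 27.7 ± 12.7 against 11.1 ± 2.31 CPM, with 88.3 CPM in rule nuclei of non-neuronal classes and 14.5 CPM in those of the led clusters. The converting enzymes Ece1 and Ece2 had mean log2 ratios of -0.12 ± 0.24 and -0.13 ± 0.31. Edn1 and Edn2 were at or below 0.159 CPM in rule nuclei.

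Of 27 BMP pathway genes outside the rule, 12 reached 20 CPM and 0 passed 2-fold in every pool. The receptor gene Bmpr2 was detected in 70.5% of rule nuclei and had a mean log2 ratio of -0.12 ± 0.19, and the signal transducer Smad1 had 0.22 ± 0.23 (SD, n = 12 pools). Bmper, a secreted BMP regulator, had -1.57 and stood at 3.62 CPM in rule nuclei of the led clusters. Bmper was counted as lower with at least 3 rule genes (-2.99). It was also counted as lower for rule nuclei of the led clusters against neurons outside them (-3.68). Of 10 genes for Kv2 channels and their modifier subunits, 2 reached 20 CPM, among them the modifier Kcns3 at 18.7 ± 6.70 against 36.3 ± 7.22 CPM (SD, n = 12 pools). Kcng2, Kcng3 and Kcng4, the closest relatives of Kcng1, were at 4.55 CPM or less in rule nuclei.

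Of 31 genes for ferlins, synaptotagmins and vesicle release outside the rule, 25 reached 20 CPM and 0 passed 2-fold in every pool. Dysf, which encodes the ferlin dysferlin, had a mean log2 ratio of -0.33 ± 0.16, Syt1, the calcium sensor of fast release, of -0.67 ± 0.12, and the active-zone gene Pclo of -0.59 ± 0.07 (SD, n = 12 pools). Snap25, a core fusion protein, had -0.13 ± 0.15. Of 13 haemostasis genes outside the rule, 4 reached 20 CPM, and F2r, a thrombin receptor, had -0.09 ± 0.26.

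Ion channel lists held single members that stood apart. Of 29 further potassium and HCN channel genes at 20 CPM, 0 passed 2-fold in every pool between all rule nuclei and other neurons. Kcnq3, a subunit of the M-type channel, stood at 1388 ± 211 against 934 ± 156 CPM and at 2230 CPM in rule nuclei of the led clusters. Kcnt2, a sodium-activated potassium channel, stood at 366 ± 47.2 against 212 ± 13.3 CPM, and Kcnma1, the large-conductance channel, at 515 ± 59.2 against 947 ± 47.5 CPM. Among 14 sodium channel genes at 20 CPM, with a median log2 ratio of -0.09, Scn7a, an atypical channel also made by glia, stood at 2261 ± 208 against 1278 ± 83.6 CPM and at 3195 CPM in rule nuclei of non-neuronal classes. Scn9a and Scn10a had mean log2 ratios of -0.08 ± 0.12 and -0.05 ± 0.12. The 13 calcium channel genes at 20 CPM had a median log2 ratio of -0.60, next to 0.02 over all genes at 20 CPM. Cacna1c, an L-type channel, had -0.74 ± 0.29 and the subunit Cacna2d3 had -0.76 ± 0.22. For rule nuclei of the led clusters against neurons outside them, the potassium channel genes Kcnh1, Kcnk10, Kcnh8, Kcnc2 and Kcnma1 were counted as lower. So was the calcium channel subunit Cacnb2, at -2.68, and no member of these lists was counted as higher. With at least 3 rule genes, Kcnh8 and Cacnb2 were counted as lower.

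Among sensory and receptor genes, Esr1 and Tafa4 were the members counted in every pool between all rule nuclei and other neurons. Trpa1, an irritant channel, stood at 553 ± 123 against 382 ± 40.2 CPM and at 890 CPM in rule nuclei of the led clusters. S1pr3, a receptor of sphingosine 1-phosphate, stood at 202 ± 34.1 against 90.5 ± 12.1 CPM. Asic2, an acid-sensing channel, stood at 1058 ± 257 against 2054 ± 283 CPM. The 15 hormone, lipid and peptide receptors at 20 CPM had a median log2 ratio of -0.43. Ret, the GDNF family coreceptor, and Ntrk3, a neurotrophin receptor, had ratios of 0.01 each. The receptors of glutamate, GABA, acetylcholine and serotonin, with 31 genes at 20 CPM, had a median of -0.16. The transcription factor list, with 30, had -0.03. For rule nuclei of the led clusters against neurons outside them, others were counted, among them Asic2 and Gpr65 as lower and Adcyap1 as higher.

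**Figure D3:**
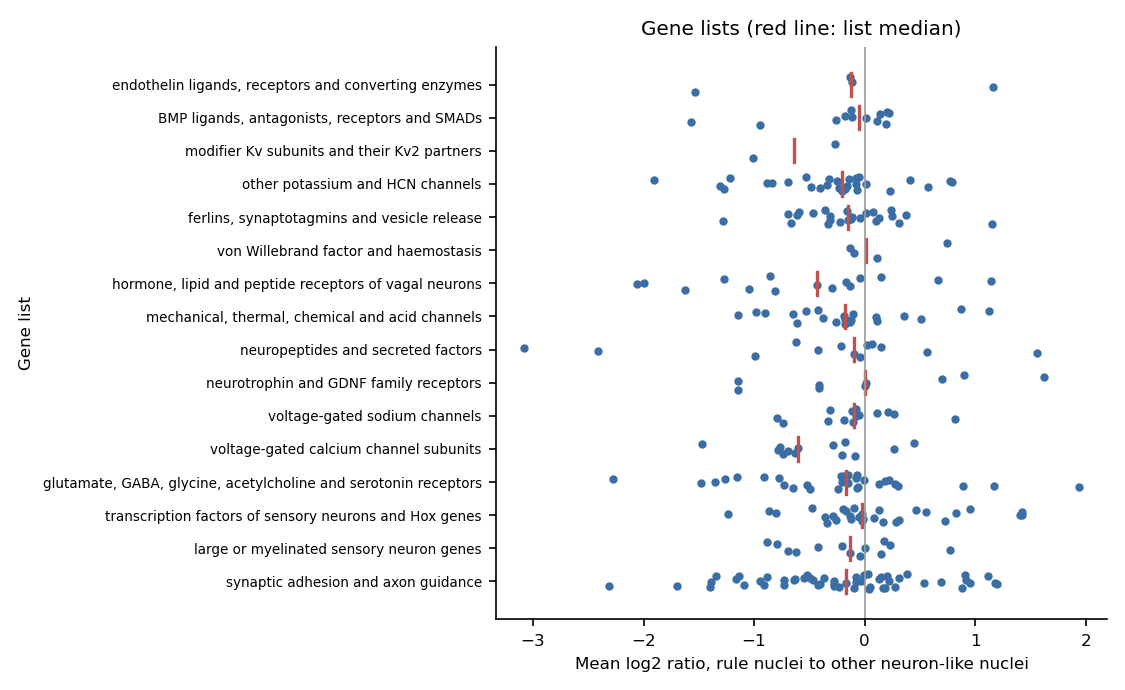
Mean log2 ratio of rule nuclei to other neurons (horizontal axis) for every gene at 20 CPM or more in 16 gene lists (vertical axis), rule genes left out, with the list median as a red line. List medians lay between -0.64 and 0.01, and Tafa4 at -3.08 was the lowest point.

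Rule nuclei were also read for 14 other sets of neuron genes, counting nuclei with at least 2 genes of a set. The share was higher in rule nuclei than in other neurons for 6 sets and lower for 8. For Brinp3, Pappa2 and Galnt14 the shares were close, at 9.30% and 9.17%. For Nxph1, Slit2 and Kcnk2 they were 6.46% and 6.09%. The latter genes were among those leading the unnamed cluster 10, which other neurons leave out. In all nuclei outside the rule their share was 7.69%. Rule nuclei of the led clusters had 4.37% for the Brinp3 set and 1.71% for the Nxph1 set. At least 2 of Trpa1, Itm2a and S1pr3 were detected in 507 rule nuclei, which were 49.6% of the rule nuclei and 7.60% of the 6670 nuclei with that combination. The share was 65.0% among rule nuclei of the led clusters and 21.8% in other neurons. At least 2 of Col27a1, Kirrel3 and Fhip1a were detected in 23.9% of rule nuclei and 11.8% of other neurons. Other neurons leave out the unnamed cluster 0, which had these 3 genes among its leading genes. In all nuclei outside the rule the share was 19.4%, and in rule nuclei of the led clusters it was 17.9%. At least 2 of Pde1a, Lpar3 and Hunk were detected in 23.1% of rule nuclei and 13.5% of other neurons. The widest gaps in the other direction were those of Tafa4, Esr1 and Crhr2, with 6.36% of rule nuclei and 13.4% of other neurons, of Cysltr2, Gdpd4 and Ret, with 11.4% and 17.7%, and of Chrm2, Itgae and Gpr65, with 4.99% and 10.5%. These shares were not matched for depth, and rule nuclei were deeper.

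The side comparison asks whether left and right ganglia hold unequal shares of these nuclei. Left pools held 2.74 ± 0.84% of their nuclei under the rule and right pools 2.77 ± 0.20% (SD, 6 pools a side), with p = 0.91 in a two-sided exact permutation test within labelled sex (adjusted p = 0.91 over 4 comparisons, 400 relabellings, smallest possible p 0.005). Left pools ranged from 1.58% to 3.63% and right pools from 2.51% to 2.96%, so the right range lay inside the left one. Of neurons, the share was 3.71 ± 1.32% on the left and 3.96 ± 0.69% on the right (exact permutation p = 0.66, adjusted p = 0.88, n = 6 each).

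By labelled sex, male-labelled pools held 2.36 ± 0.50% and female-labelled pools 3.15 ± 0.34% (SD over 6 pools), a difference of 0.794 percentage points with an exact permutation p = 0.01 (adjusted p = 0.04). Without ML1 and FL1 the difference was 0.795 points (exact permutation p = 0.0333, unadjusted). By the numbers of rats, the left and right pools of a sex would draw on the same rats. The tests by labelled sex took them as separate units, so their p-values do not measure the spread between independent groups of rats. Male-labelled pools ranged from 1.58% to 2.89% (median 2.53%) and female-labelled pools from 2.79% to 3.63% (median 3.03%), with a small overlap. With every nucleus thinned to 2000 UMIs, which left out 7148 male-labelled and 5920 female-labelled nuclei and kept 360 under the rule, the shares were 1.42 ± 0.39% and 1.53 ± 0.32% (exact permutation p = 0.635, n = 6 each). At 1500 UMIs, with 281 nuclei under the rule, they were 0.834 ± 0.275% and 1.12 ± 0.279% (exact permutation p = 0.115, n = 6 each), and at 3000 UMIs, with 421, they were 2.23 ± 0.758% and 2.72 ± 0.308% (exact permutation p = 0.185, n = 6 each). The ratio of female-labelled to male-labelled shares was 1.34 with all UMIs and 1.08, 1.35 and 1.22 at 2000, 1500 and 3000 UMIs, so the difference was not called at any of these depths, on fewer rule nuclei, while the ratio at 1500 UMIs was as large as with all UMIs. Counting all nuclei of the led clusters, a measure added after seeing the data that does not need a detected rule gene, gave 4.29 ± 0.63% in female-labelled pools, a difference of -0.0131 points from male-labelled ones (exact permutation p = 1.0, n = 6 each). Without ML1 and FL1 that difference was -0.303 points (exact permutation p = 0.533). Of neurons, the shares were 3.25 ± 1.01% and 4.42 ± 0.63% (exact permutation p = 0.04, adjusted p = 0.08, n = 6 each), and the unadjusted p was 0.1 without ML1 and FL1. The median depth of rule nuclei was 4430 ± 781 UMIs in male-labelled and 4826 ± 534 UMIs in female-labelled pools.

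**Figure D4:**
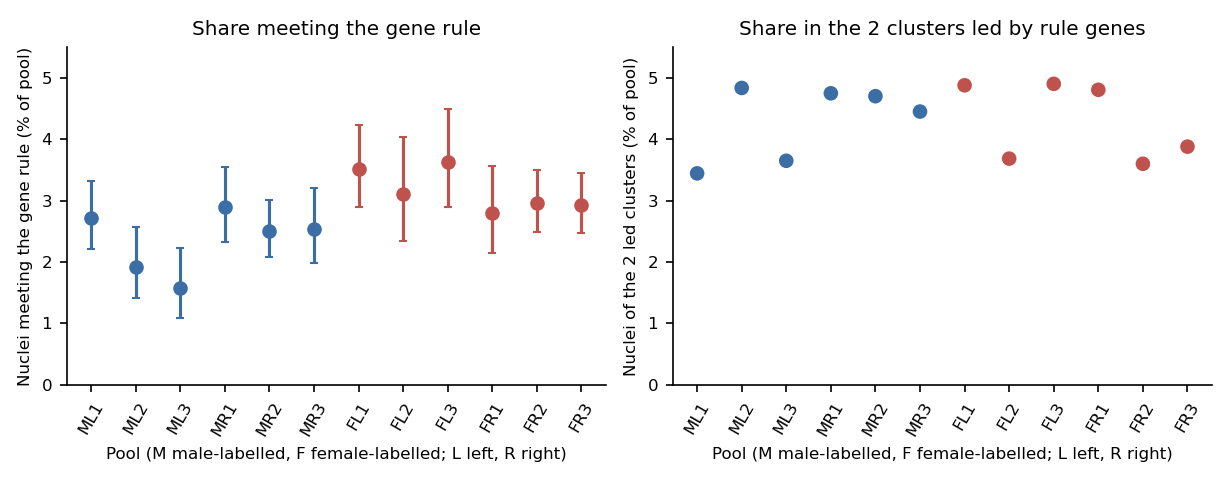
Share of each pool's nuclei (vertical axes, %) that met the gene rule, with exact binomial 95% intervals that cover counting error only (left), and that fell in the led clusters (right), by pool (horizontal axes). Rule nuclei spanned 1.58% to 3.63%, while the led clusters spanned 3.44% to 4.90% with overlapping ranges of the labelled sexes.

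Gene levels in rule nuclei were compared by side and labelled sex on UMIs summed per pool. Of 8117 genes tested by side with edgeR's quasi-likelihood test, 0 were called at an adjusted p under 0.05 (0.0% of all tested), 415 had an unadjusted p under 0.05, and DESeq2 called 0. The smallest p belonged to Brinp3, which encodes a secreted or membrane-bound neural protein. It ranged from 65.6 to 130 CPM (median 94.7) in left pools and from 43.4 to 62.6 CPM (median 54.8) in right pools. Every left pool was above every right pool. Picking the smallest p of 8117 genes favours such a separation, and the share of all tested genes without overlap is not given here. The log2 fold change of Brinp3, right over left, was -0.87 (SE 0.16, edgeR adjusted p 0.0607). With only rule nuclei of neuron-like clusters it was called (log2 fold change -1.17, edgeR adjusted p 0.000574), and it was also called without ML3, FL3 or FR1 and with no filter on low counts. Without the nuclei of the highest Scrublet (doublet) scores it was -0.66 (edgeR adjusted p 0.988), and over all nuclei of the led clusters -0.08 (edgeR adjusted p 1.0). The 23 alternatives, DESeq2 among them, gave an adjusted p between 0.000217 and 1.0. Scaled to UMIs alone, Brinp3 stood at 90.5 ± 21.7 CPM on the left and 52.2 ± 6.69 CPM on the right in rule nuclei, and at 101 ± 18.8 and 101 ± 21.4 CPM in other neurons (SD, n = 6 each). No test of that contrast was run, because no gene was called.

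Kcnd3, which encodes the A-type potassium channel Kv4.3, had the next smallest p. It ranged from 126 to 191 CPM in left pools and from 82.9 to 114 CPM in right pools, again without overlap (log2 fold change -0.68, SE 0.13, edgeR adjusted p 0.0654). It was called without FL1, FL3 or FR1 and with no filter on low counts. In other neurons the unscaled means were 174 CPM on the left and 175 CPM on the right. Cntn3, a contactin cell adhesion gene, had -1.64 (SE 0.37, edgeR adjusted p 0.223) on 98 UMIs in all rule nuclei. It was called without MR2 (-2.16, edgeR adjusted p 0.0157) and with no filter, and 19 alternatives, DESeq2 among them, gave an adjusted p between 0.00104 and 0.876. Without ML1 and FL1 no gene was called by side, and 368 had an unadjusted p under 0.05.

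**Figure D5:**
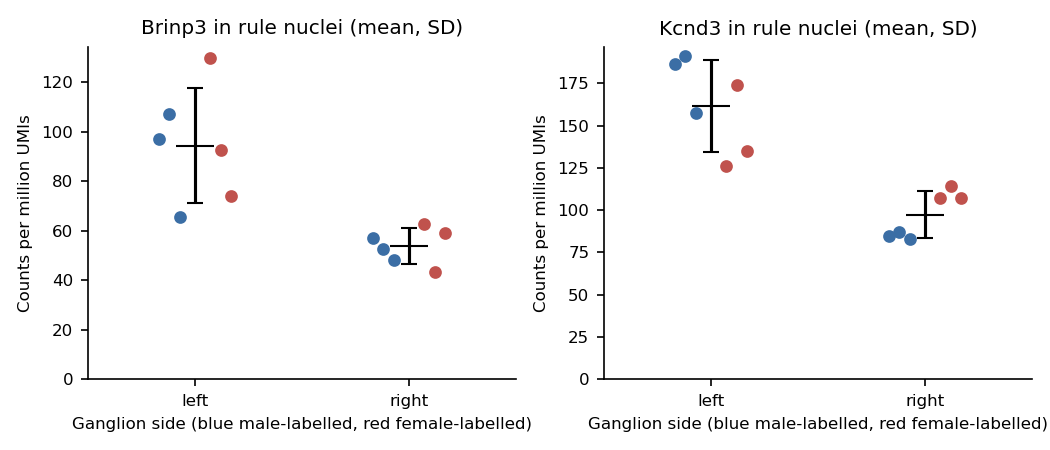
Brinp3 and Kcnd3 in rule nuclei (vertical axes, CPM) by side (horizontal axes), with 1 point per pool and the mean with SD over 6 pools. Both genes were picked for the smallest p, which favours separate sides. Every left pool lay above every right pool for both, and neither passed the threshold (edgeR adjusted p 0.0607 and 0.0654).

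By labelled sex 0 of 8117 genes were called in edgeR's quasi-likelihood test (0.0%), with 472 at an unadjusted p under 0.05 and 0 called by DESeq2. As for the shares, pools that would draw on the same rats were taken as separate units. Hmbox1, a homeobox gene, had one of the 3 smallest p-values, a choice that favours separate groups. It ranged from 654 to 820 CPM in male-labelled and from 498 to 617 CPM in female-labelled pools, without overlap. Its log2 fold change was -0.40 (edgeR adjusted p 0.130) without ML1 and FL1, and -0.34 ± 0.08 SE (edgeR adjusted p 0.672) with all pools. AABR07040864.1 had -0.82 (SE 0.20) with the same adjusted p, and -0.78 (edgeR adjusted p 0.376) without ML1 and FL1, and other neurons showed 967 against 511 CPM. It was called without MR1 (-1.02, edgeR adjusted p 0.0063) and with no filter, and 22 alternatives, DESeq2 among them, gave an adjusted p between 4.07e-14 and 1.0. Without ML1 and FL1, 6 genes were called: the Y-linked Kdm5d and Eif2s3y, with Ddx3 and ENSRNOG00000060617, were lower in female-labelled pools, and ENSRNOG00000065796 and the heparanase family gene Hpse2 were higher, Hpse2 by a log2 fold change of 1.37 (edgeR adjusted p 0.0106).

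Over all nuclei of the led clusters, a set added after seeing the data, 57 genes were called by labelled sex. Of these, 5 were higher and 52 lower in female-labelled pools. The number of genes tested in this set is not given here. Here too, pools that would draw on the same rats were taken as separate units. Without ML1 and FL1, 35 were called, 7 higher and 28 lower, and 27 of the 57 were among them. The lower genes included the mechanical channel gene Piezo2 (log2 fold change -1.12, edgeR adjusted p 0.000742), the sodium channel gene Scn1a (-0.81, 0.0148) and Nefh, a heavy neurofilament of large axons (-0.34, 0.0499). They also included Col25a1 (-0.84, 0.000174), Fbln2, Tnc and Tyrp1, all among the 10 leading genes of the satellite glia cluster. Without ML1 and FL1, Piezo2 (-0.91, edgeR adjusted p 0.00737), Col25a1 (-0.83, 0.000508), Fbln2 and Tnc were also called, while Scn1a (-0.63, 0.144), Nefh (-0.33, 0.140) and Tyrp1 (-0.43, 0.235) were not. With only the rule nuclei of those clusters 0 genes were called, 264 had an unadjusted p under 0.05 in edgeR, and the part of glial RNA in the 57 was not tested.

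For the interaction of side and labelled sex, 0 of 8117 genes were called by edgeR (0.0%), 427 had an unadjusted p under 0.05, and DESeq2 called 0. The 3 smallest p-values belonged to ENSRNOG00000065796, ENSRNOG00000060617 and Ddx3, with an edgeR adjusted p of 0.357 each. ENSRNOG00000060617 stood at 1.59 CPM in ML1 and 99.8 CPM in FL1, between 99.6 and 152 CPM in the other male-labelled pools and at 5.55 CPM or less in the other female-labelled pools. Ddx3 followed the same pools. ENSRNOG00000065796 stood at 81.1 CPM in ML1 and 1.37 CPM in FL1, and its interaction turned from 5.48 to -2.07 (log2) without ML1. These are the pools whose labels went against their Y-linked transcripts. In the gene lists no member was called by side, labelled sex or interaction, and list medians by side lay between -0.17 and 0.13 next to -0.00462 over all genes tested.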

How the data were processed

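The deposited files hold raw UMI counts per nucleus and gene from single nuclei, which the authors fixed and barcoded with Evercode version 2 kits, per the labels' protocols, with a table naming each nucleus's pool. The submitters' processing notes name R 4.3.2, Seurat 4.1.3 and build mRatBN7.2. The aligner is not given in the sources used here. Matrix sums equalled the deposited UMI and gene counts per nucleus in all nuclei. UMIs per pool ranged from 7140286 to 19456287, and those of rule nuclei from 156842 to 831386.

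The rule nuclei, gene lists and tests were chosen with earlier results of these data known. Nuclei were clustered with scanpy 1.11.5 (3000 variable genes, 30 components, 20 neighbours, leidenalg 0.10.2 at resolution 1). A cluster was named from marker lists (3 markers at 2-fold in 10% of nuclei). The neuron list alone did not separate the clusters, so the limit for neurons (3 markers of the neuron, nodose and jugular lists together, 1.5-fold over non-neuronal classes) and the definition of led clusters were settled after the clusters had been seen, and 3 clusters stayed unnamed. Fibroblast and skeletal muscle clusters also reached 2 and 5 such neuron markers. Scrublet called 2 nuclei and so did not work as a caller; doublets were not removed, and an alternative left out the highest 5% of scores.

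UMIs summed per pool were tested with edgeR 4.0.16 (quasi-likelihood, TMM, R 4.3.3), with DESeq2 1.42.0 as an alternative and Benjamini-Hochberg adjustment. Against other neurons, genes were counted at 2-fold or more in every pool (pseudocount 1 CPM, at least 20 CPM). Named genes were the rule genes, the 3 smallest p-values of each fit, the genes counted 2-fold, members of each list by detection, and the 10 most alike in detection. Genes named from alternative sets, and Bmper, Edn2 and Kcng4, were chosen after their values were seen. Some genes that meet these rules are not reported here. Of 485 list symbols, 469 were found in the gene list. Alternatives changed depth, the rule, filters, pools and clusters.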

Additional observations from a re-analysis of the deposited data

Results flagged for a closer look

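In 72 groups of 6 pools (18 measures, each by side and by labelled sex), 9 had a pool farther from the others than Dixon's limit; chance flags about 1 group in 20. In left pools, ML3 had the lowest share of rule nuclei in the led clusters, 37.5%, on 32 rule nuclei. Among the genes of the interaction, ENSRNOG00000065796 stood apart in ML1 at 81.1 CPM within the male-labelled pools. ENSRNOG00000060617 stood apart in ML1 at 1.59 CPM within the male-labelled pools and in FL1 at 99.8 CPM within the female-labelled pools. Ddx3 stood apart in the same pools, at 1.59 CPM in ML1 and 54.7 CPM in FL1. Among the rule genes, Chrdl1 was lowest among right pools in MR3 at 149 CPM, Kcng1 was highest among right pools in MR1 at 156 CPM, and Otof was lowest among female-labelled pools in FR1 at 189 CPM.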

How the results depend on the processing

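The alternatives that used clusters led by rule genes, or counted unnamed clusters as neurons, were chosen after seeing the data. The difference in share of all nuclei between labelled sexes (0.794 points, female minus male) had an unadjusted p above 0.05 at 2000, 1500 and 3000 UMIs (0.108, 0.289 and 0.492), with at least 3 rule genes (0.413), in neuron-like clusters (0.631) and in led clusters (0.349). These settings also lower the shares themselves: the ratio, female over male, was 1.34 with all UMIs, 1.08, 1.35 and 1.22 in the order of UMIs, 1.41 with at least 3 rule genes, 1.34 in neuron-like and 1.28 in led clusters. Over all nuclei of led clusters the difference was -0.0131, and -0.303 without ML1 and FL1. Leaving out 1 pool gave 0.638 to 0.900. As a share of neurons it was 1.17, with an unadjusted p of 0.04 that did not pass after adjustment. The unadjusted p was 0.05 or more in the same order of UMIs (0.257, 0.425 and 0.750), with at least 3 rule genes (0.702), without Vwf (1.08), without the highest Scrublet scores (1.14), in all nuclei (0.189) or rule nuclei (0.667) of led clusters and without ML1 and FL1 (1.04). Over all nuclei of led clusters without ML1 and FL1 it was -0.435. Leaving out 1 pool gave 0.876 to 1.49, and in 9 of 12 such runs (those without ML1, ML2, ML3, MR2, MR3, FL1, FL2, FL3 or FR2) the exact permutation p was 0.06 to 0.085. The side difference in share of all nuclei (0.0256, right minus left, not called) turned at 1500 UMIs (-0.00212), with at least 3 rule genes (-0.260), with 2 UMIs of Edn3 or Chrdl1 (-0.0414), without Vwf (-0.112), in neuron-like clusters (-0.182) and in led clusters (-0.127), and ranged from -0.208 to 0.203 with 1 pool left out. As a share of neurons it turned with at least 3 rule genes (-0.192) and ranged from -0.138 to 0.551 with 1 pool left out.

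Gene calls with no filter on low counts were 17 by side, 15 by labelled sex and 22 by interaction, against 0 each. Leaving out 1 pool gave 0 to 4, 0 to 5 and 0 to 8. Rule nuclei of neuron-like clusters gave 1 by side. Leaving out ML1 and FL1 gave 6 by labelled sex and 1 by interaction, and all nuclei of led clusters gave 57 and 8, or 35 and 0 without ML1 and FL1. ENSRNOG00000065796 turned from 5.48 to -2.78 without ML1 and FL1 and to -3.45 over all nuclei of led clusters without them, and ranged from -2.07 (without ML1) to 6.22 (without MR2) with 1 pool left out. Against other neurons, the 22 higher and 8 lower genes became 9 and 21 with at least 3 rule genes. The higher genes were 11 against depth-matched neurons and 22 to 52 with 1 pool left out, 52 without ML2, which had 45 rule nuclei. The lower genes were 5 in neuron-like clusters, 82 for rule nuclei of led clusters, 4 with unnamed clusters as neurons and 8 to 11 with 1 pool left out. The cause of these changes was not tested.

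The labels do not say that left and right pools of 1 number share rats, and correlations of their deviations lay between -0.0413 and 0.0667. The replicate block gave 0 calls by side, with 380 genes at an unadjusted p under 0.05. No block was run for labelled sex or the interaction, since numbers do not pair the sexes. Depth limits the shares: rule nuclei need 2 detected genes, and Edn3 gave 536 UMIs in all rule nuclei.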
